A study of Rattus norvegicus with 48 samples.

Results

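The let-7 and miR-98 guide strands were followed through the livers of rats given thioacetamide (TAA), a hepatotoxicant that damages the centre of the liver lobule after the liver has oxidised it. The family was taken as a fixed list of 8 mature miRNAs, rno-let-7a-5p, rno-let-7b-5p, rno-let-7c-5p, rno-let-7d-5p, rno-let-7e-5p, rno-let-7f-5p, rno-let-7i-5p and rno-miR-98-5p, chosen by name and written below without the rat prefix. They are 8 of the 664 mature miRNAs with a read and 8 of the 301 that were abundant enough to be tested. Liver small RNA was sequenced from 48 male Sprague-Dawley rats in 16 groups of 3. Rats of the treated groups had received TAA every day at 4.5 mg/kg (low dose), 15 mg/kg (middle dose) or 45 mg/kg (high dose) for 3, 7, 14 or 28 days, and these time points are written 3-d to 28-d. Rats of the 4 control groups had received the vehicle for the same number of days and served all 3 doses of that day, so the comparisons at a time point share their controls. The study asked whether miRNAs respond to TAA at low doses and early time points, and each dose was compared with the controls of its day. The samples were pieces of whole liver, in which more RNA per cell and more cells of a type cannot be told apart.

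The let-7 miRNAs are among the most conserved of all miRNAs, and they accumulate as cells leave the proliferating, undifferentiated state. The guide strand is the strand of the processed hairpin that is kept in Argonaute, and its seed, the bases from position 2 to position 8, pairs with target mRNAs such as those of Hmga2, Lin28b and the Ras genes, while the passenger strand is mostly discarded. The RNA-binding protein LIN28 blocks the maturation of let-7 precursors, and adult liver is known for high levels of the family.

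The 8 sequences are shown because they differ in very few bases outside a common seed, so that neither the seed nor the length sets the members apart. They were matched by name in the RefSeq annotation of the rat build GRCr8, where all 8 were found. Capitals mark the seed.
let-7a-5p: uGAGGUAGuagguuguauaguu
let-7b-5p: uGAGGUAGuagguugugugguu
let-7c-5p: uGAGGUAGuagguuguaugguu
let-7d-5p: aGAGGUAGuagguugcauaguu
let-7e-5p: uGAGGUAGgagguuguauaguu
let-7f-5p: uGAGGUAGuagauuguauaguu
let-7i-5p: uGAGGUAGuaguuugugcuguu
miR-98-5p: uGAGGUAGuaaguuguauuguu

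All 8 are 22 bases long. Of the 693 mature miRNA names in that table, 9 carry this seed, and the ninth, let-7g-5p, is no member of the list. Counted from 1 at the 5′ end and with the base of let-7a-5p written first, let-7c-5p differs from let-7a-5p by A19G, let-7e-5p by U9G and let-7f-5p by G12A. The 2 differences of let-7b-5p are A17G and A19G, those of let-7d-5p are U1A and U16C, and those of miR-98-5p are G11A and A19U. The most distant member, let-7i-5p, carries G12U, A17G, U18C and A19U. Members that differ by 1 base, among them let-7b-5p and let-7c-5p, can exchange reads when a mismatch is allowed in counting. How many reads this concerned cannot be seen in the counts. Values of let-7a-5p, let-7b-5p, let-7c-5p, let-7e-5p and let-7f-5p are uncertain to that extent.

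The members come from 11 places in GRCr8, given here as the span of the mature strand. On chromosome 17 lie let-7a-5p of Mirlet7a1 (chr17:16320145-16320166, plus strand), let-7f-5p of Mirlet7f-1os (chr17:16320508-16320529, plus) and let-7d-5p of Mirlet7d (chr17:16322273-16322294, plus), all within the span of the long noncoding RNA gene LOC120097935. On chromosome X lie the second copy of let-7f-5p, Mirlet7f2 (chrX:24460052-24460073, plus), and miR-98-5p of Mir98 (chrX:24460663-24460684, plus), both inside Huwe1, the gene of a ubiquitin ligase. On chromosome 7 lie let-7c-5p of Mirlet7c2 (chr7:118683636-118683657, plus), let-7b-5p of Mirlet7b (chr7:118684044-118684065, plus) and, far from them, let-7i-5p of Mirlet7i (chr7:60527935-60527956, minus), which is spanned by LOC134479799. No other annotated gene spans Mirlet7c2 or Mirlet7b. The other places are let-7e-5p of Mirlet7e within the span of Spaca6 (chr1:67350243-67350264, plus), the second copy of let-7a-5p, Mirlet7a-2 inside Mir100hgl (chr8:50805219-50805240, plus), and the second copy of let-7c-5p, Mirlet7c1 inside the noncoding RNA gene LOC103693508 (chr11:29688127-29688148, plus). A mature strand with more than 1 gene cannot be assigned to either from its reads.

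Levels are given as normalized RPM, reads scaled to a library of 1000000 reads (RPM) and then divided by the upper quartile factor of that library, and a mean is followed by its SD over 3 rats. The 48 libraries held 293331 to 14906217 counts each (median 10237500). The lowest, control 3-d replicate 1, stood apart from the other 47, which had at least 4829217 counts, and the log2 fold changes of members against the 3-d controls are given with and without it. Low dose 28-d replicates 28 and 30 and high dose 7-d replicate 26 differed from the other rats of their groups in miRNAs beside let-7 genes, as described with those miRNAs. A marker list of hepatocytes fitted the tissue label, with a median of 34939 RPM for miR-122-5p and 209194 RPM for miR-192-5p. Of the muscle miRNAs, miR-1-3p and miR-206-3p had a median of 0 and miR-133a-3p one of 4.51 RPM. Replicate numbers are the running numbers from 1 to 48 in the sample titles, each group holds 3 consecutive numbers, and what their order stands for is not given. Low dose libraries of the first 3 time points carry the numbers 40 to 48 and those of 28-d the numbers 28 to 30, so that group and position in this order cannot be told apart.

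let-7f-5p held the most reads of the family in every library, with a median share of 59.6% of the reads of the 8. Its median over the 48 libraries was 19283 RPM, the rank 12 among all miRNAs, and it was above let-7a-5p in 48 of 48 libraries, with a median ratio of 2.93. The medians then fell through let-7a-5p at 6181 RPM, let-7c-5p at 2925 RPM, let-7i-5p at 1270.1 RPM, let-7d-5p at 925 RPM, let-7b-5p at 724 RPM and let-7e-5p at 308 RPM to miR-98-5p at 181 RPM. This order held in 48 of 48 libraries for 5 of the 7 neighbouring pairs. let-7d-5p was above let-7b-5p in 46 libraries and let-7e-5p above miR-98-5p in 42.

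A member was called a differentially expressed miRNA (DEM) where the edgeR quasi-likelihood F-test gave an unadjusted p below 0.05 and a fold change above 1.5, and the p adjusted over all 301 tested miRNAs is given beside it. In the 12 treatment conditions the 8 members gave 96 comparisons, of which 10 were DEMs above the controls and 2 below. Over all tested miRNAs 12.1% of the comparisons were higher and 5.98% lower DEMs. Of the 96 comparisons, 11 were DEMs with an adjusted p below 0.05 as well, 9 higher and 2 lower. Over all tested miRNAs this held for 402 of 3612 comparisons, or 11.1%. DEMs of the family occurred in 4 conditions, the low dose from 3-d to 14-d and the middle dose at 28-d, and the other 8 conditions had none. miR-98-5p was a DEM in 3 conditions, let-7a-5p and let-7i-5p in 2 each, and the other 5 members in 1 each.

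**Figure D1:**
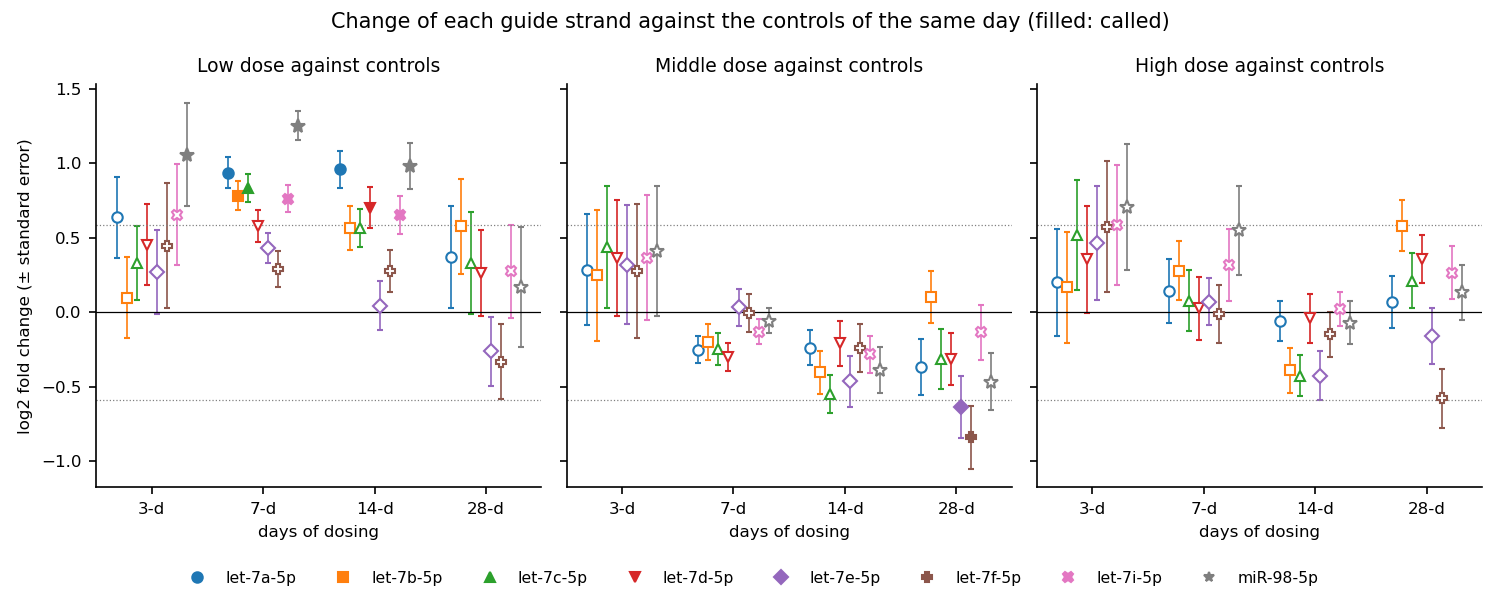
Log2 fold change of each of the 8 guide strands (vertical axis, log2 scale, bars show the standard error of the edgeR fit, 3 rats against 3 controls) by days of dosing, with 1 panel for each dose. Filled symbols are DEMs and dotted lines mark a fold change of 1.5. The low dose panel holds all 10 higher DEMs, led by miR-98-5p at 1.25 at 7-d, and the middle dose panel holds the 2 lower DEMs, let-7e-5p and let-7f-5p at 28-d.

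At the low dose and 7-d, 5 of the 8 members were higher DEMs, let-7a-5p, let-7b-5p, let-7c-5p, let-7i-5p and miR-98-5p, by 1.70 to 2.39 times. All 8 had a log2 fold change above 0. DEMs above the controls made up 18.3% of all tested miRNAs in this condition and DEMs below them 10.6%. In 7 of the 8 members every treated rat lay above every control, which was so for 30.2% of all tested miRNAs. The median log2 fold change of the 8 members was 0.77, against 0.02 over all tested miRNAs.

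miR-98-5p had 339, 385 and 372 normalized RPM in the 3 rats of the low dose at 7-d and 153, 157 and 149 in the controls. The groups were far apart, with the lowest treated rat above the highest control. The log2 fold change was 1.25 (standard error of the edgeR fit, SE, 0.10, adjusted p = 7.48e-05). The most abundant of these DEMs, let-7a-5p, had 10649, 12110.4 and 12045 normalized RPM in the treated rats. It had 6354, 6473 and 5356 in the controls, again without overlap. Its log2 fold change was 0.94 (SE 0.10, adjusted p = 0.000239).

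let-7c-5p and let-7b-5p, which lie beside each other on chromosome 7, were both among the 5. let-7c-5p had 4264, 4629 and 4468 normalized RPM after the low dose and 2615, 2608 and 2274 in the controls, and let-7b-5p had 966, 1091 and 1048 against 612, 634 and 559. In both, all 3 treated rats were above the controls. The log2 fold change was 0.83 (SE 0.09) for let-7c-5p and 0.78 (SE 0.10) for let-7b-5p, with edgeR adjusted p = 0.000239 and 0.000412. let-7i-5p, from its own gene on the same chromosome, had 1861, 2098 and 2076 against 1221, 1194 and 1142, which is a log2 fold change of 0.76 (SE 0.09, adjusted p = 0.000344).

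Among the 3 members that were no DEMs at 7-d, let-7d-5p fell just short of the fold threshold. It had 1314, 1423 and 1529 normalized RPM against 1023, 982 and 846, a fold change of 1.496 and a log2 fold change of 0.58 (edgeR adjusted p = 0.00338). The lowest treated rat was above the highest control. let-7e-5p had 369, 353 and 359.6 against 293, 260.5 and 248, a log2 fold change of 0.43 (edgeR adjusted p = 0.0094). let-7f-5p, the member with the most reads, had 20417, 23435 and 21899 against 21132, 16992 and 15552, and its groups overlapped. Its log2 fold change was 0.29 (edgeR adjusted p = 0.0869).

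After 14 days of the low dose, 4 members were DEMs, all higher, where the background was 22.9% higher and 9.63% lower. miR-98-5p had 363, 372 and 387 normalized RPM against 182, 173 and 211 in the controls, and let-7a-5p had 12358, 11297 and 12996 against 5929.8, 5677 and 7229. Both groups of treated rats were clear of the controls. The log2 fold change was 0.98 for miR-98-5p (SE 0.15, adjusted p = 0.000748) and 0.96 for let-7a-5p (SE 0.13, adjusted p = 0.000264).

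The other 2 DEMs at 14-d were let-7d-5p, with 1612, 1436 and 1589 normalized RPM against 887, 888 and 1075, and let-7i-5p, with 1975, 1980.5 and 2217 against 1236, 1256 and 1424. Neither overlapped with the controls. The log2 fold changes were 0.70 (SE 0.14, adjusted p = 0.00269) and 0.66 (SE 0.13, adjusted p = 0.00268). Both calls hung on the scaling and on the filter. Under TMM, DESeq2's size factors, library size alone, no filter, a filter of at least 5 RPM in every library or the DESeq2 Wald test, let-7d-5p had a log2 fold change between 0.47 and 0.58 and let-7i-5p one between 0.42 and 0.53, below the fold threshold, so that only let-7a-5p and miR-98-5p remained DEMs.

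Treated and control rats at 14-d did not overlap in 6 members, with 32.9% of all tested miRNAs lying wholly above the controls in the same way. The exceptions were let-7e-5p and let-7f-5p. let-7e-5p had a log2 fold change of 0.05 (edgeR adjusted p = 0.857), which turned to between −0.08 and −0.20 under the 6 settings just named. let-7f-5p had 0.28 (edgeR adjusted p = 0.145). The median of the 8 members was 0.61, against 0.11 over all tested miRNAs.

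**Figure D2:**
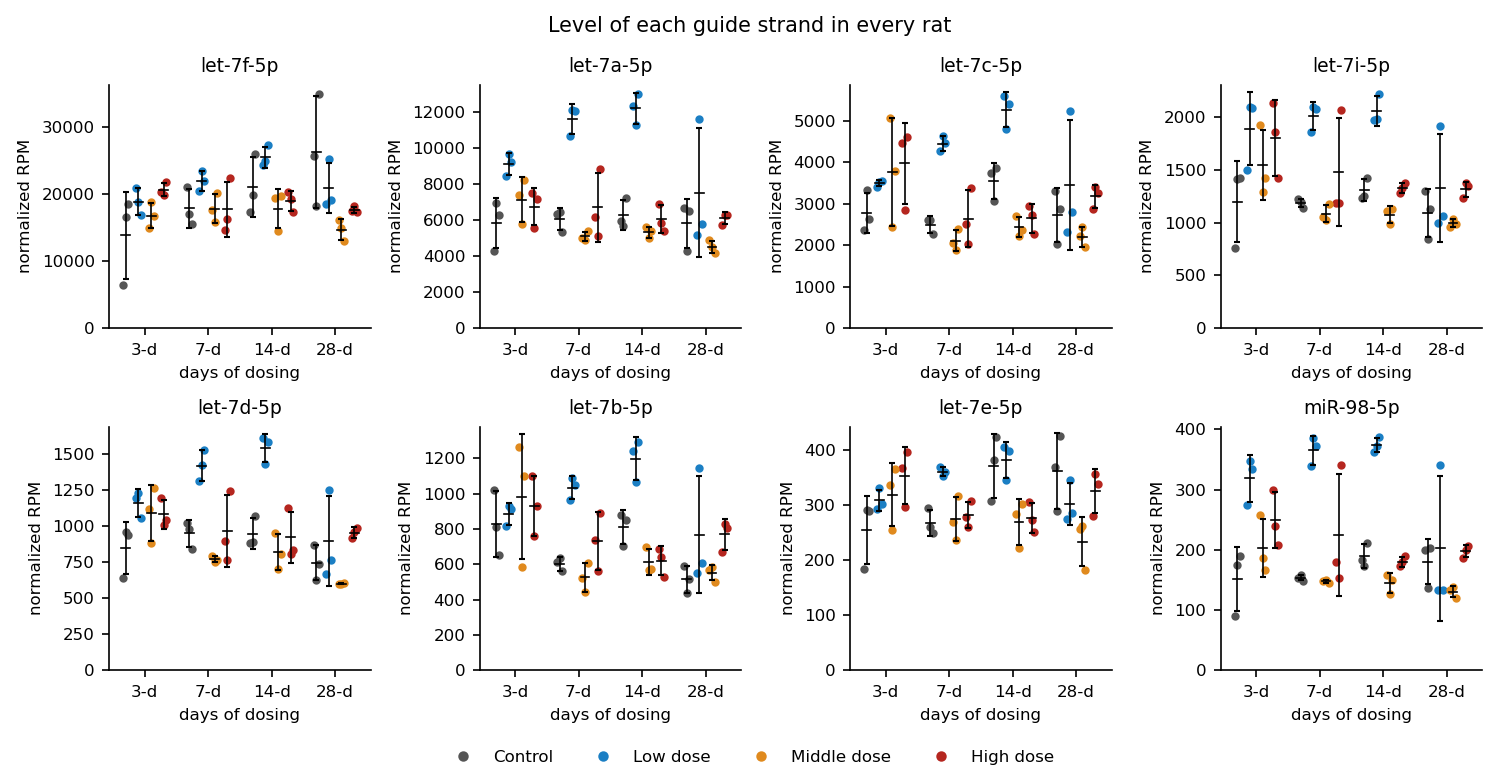
Normalized RPM (vertical axes, linear from 0) of each guide strand in every rat, by days of dosing, with controls grey, low dose blue, middle dose orange and high dose red. Points are rats, and black lines give the mean and SD of 3. In 6 panels the low dose groups at 7-d and 14-d stand above all other groups by their means, while in the panels of let-7f-5p and let-7e-5p the controls at 28-d reach higher, up to 34940.3 and 426.

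At 3-d only miR-98-5p was a DEM after the low dose, with 9.97% of all tested miRNAs higher and 6.64% lower. It had 275, 348 and 334 normalized RPM against 90.2, 175 and 189 in the controls, and the lowest value was that of control 3-d replicate 1. The log2 fold change of 1.06 (SE 0.35, adjusted p = 0.219) became 0.81 (SE 0.14, adjusted p = 0.0133) without that library, and miR-98-5p was still a DEM. Without low dose 3-d replicate 44 or 45 it was none, at 1.00 and 1.03. The other 7 members had log2 fold changes between 0.10 and 0.66, and without control 3-d replicate 1 between 0.09 and 0.46.

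At 28-d the low dose gave no DEM of the family with the settings as reported. No member had an unadjusted edgeR p below 0.05 there. Of all tested miRNAs 3.65% were higher DEMs and 8.64% lower ones. Library size alone, no filter and the DESeq2 Wald test each called 1 member higher. A single rat set the group means. Low dose 28-d replicate 29 had 11631 normalized RPM of let-7a-5p and 342 of miR-98-5p, while the other two rats had 5153 and 5771 of let-7a-5p and 133 and 134 of miR-98-5p. All 8 members were highest in that rat among the 3. The hepatocyte miRNA miR-122-5p moved with them, at 70947 in replicate 29 and 28212 and 27997 in the others, and miR-100-5p moved the other way, at 114 against 928 and 880.3. Their part in the result was not tested. The median log2 fold change of the members was 0.27, and −0.09 without replicate 29. The change of the low dose effect from 7-d to 28-d did not pass the test for any member, with log2 differences between −1.08 for miR-98-5p (edgeR adjusted p = 0.235) and −0.20 for let-7b-5p (edgeR adjusted p = 0.878). It had an unadjusted p below 0.05 in 2 members, miR-98-5p and let-7e-5p. For this change DESeq2 also called 0, and a filter of 5 RPM in every library called miR-98-5p at −1.28 (edgeR adjusted p = 0.0407).

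Levels in each group were then set in order for the single members, starting with those that were higher DEMs. let-7a-5p had 5853 ± 1392, 6061 ± 613, 6279 ± 833 and 5811 ± 1347 normalized RPM (SD, n = 3) in the controls, in the order of days from 3-d to 28-d. After the low dose it had 9112 ± 597, 11602 ± 825, 12217 ± 858 and 7518 ± 3575 at the same time points. The low dose at 14-d had the highest mean, followed by 7-d and then 3-d of the same dose, and the low dose at 3-d did not overlap with that at 7-d. The middle dose gave 7140.5 ± 1242, 5094 ± 253, 5331 ± 310.0 and 4506 ± 353 and the high dose 6735 ± 1020.2, 6706 ± 1925, 6044 ± 787 and 6102 ± 319.5. Of the 15 neighbouring pairs of groups in the order of let-7a-5p, 13 overlapped, so most of the lower order was within the spread between rats.

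miR-98-5p, the least abundant member, had 151 ± 53.5, 153 ± 4.30, 189 ± 19.9 and 179.9 ± 37.4 normalized RPM in the controls, in the same order of days. The low dose groups had 319 ± 38.8, 365 ± 24.1, 374 ± 12.2 and 203 ± 120.4. As for let-7a-5p, the same 3 groups came first, but here each group overlapped with the next throughout the order. The middle dose groups had 203 ± 47.8, 148 ± 2.99, 145 ± 16.4 and 130.4 ± 9.01 and the high dose groups 249 ± 46.1, 224 ± 101, 180.2 ± 8.25 and 198 ± 9.96. The highest group mean was 2.87 times the lowest, the middle dose at 28-d, which is the widest span among the 8 members.

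let-7i-5p had 1197 ± 383, 1186 ± 40.2, 1305 ± 104 and 1093 ± 229 normalized RPM in the controls from 3-d to 28-d. The low dose groups had 1891 ± 344, 2012 ± 131, 2057 ± 138 and 1324 ± 511 in that order of time. They again took the first 3 places, followed by the high dose at 3-d, and all neighbours overlapped. The middle dose groups had 1546 ± 333, 1085 ± 79.9, 1076 ± 81.5 and 997 ± 39.1 and the high dose groups 1802 ± 360.4, 1477 ± 511, 1327 ± 47.8 and 1316 ± 72.5.

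let-7d-5p, from the chromosome 17 cluster, had 846 ± 182, 950.4 ± 93.0, 949.6 ± 108 and 746 ± 121 normalized RPM in the controls from 3-d to 28-d. With the low dose it had 1162 ± 94.4, 1422 ± 107, 1546 ± 95.5 and 896 ± 313. The low dose at 7-d did not overlap with the group that followed it, the low dose at 3-d. The middle dose groups had 1092 ± 192, 772 ± 22.1, 822 ± 125 and 601 ± 3.52 and the high dose groups 1084 ± 101, 969 ± 251, 923 ± 178 and 957 ± 37.6. The 3 rats of the middle dose at 28-d, the lowest group, lay between 599 and 605, a much smaller spread than in any other group of this member.

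let-7c-5p had 2776 ± 494, 2499 ± 195, 3557 ± 432 and 2738 ± 654 normalized RPM in the 4 control groups and 3493 ± 73.2, 4453 ± 183, 5269.6 ± 416 and 3449.9 ± 1563 in the low dose groups. Its neighbour let-7b-5p had 827 ± 187, 602 ± 38.4, 811 ± 95.8 and 514 ± 76.2 in the controls and 885 ± 61.5, 1035 ± 63.3, 1199 ± 119.6 and 768 ± 331 after the low dose. In both, the low dose at 14-d and at 7-d had the highest means. let-7c-5p had 3767 ± 1313, 2109 ± 258, 2433 ± 241 and 2204 ± 242 after the middle dose and 3981 ± 976, 2642 ± 679, 2649.6 ± 343 and 3176 ± 267 after the high dose. let-7b-5p had 982 ± 354, 525 ± 80.6, 613 ± 75.6 and 553 ± 44.2 after the middle dose and 929.9 ± 169.8, 730.5 ± 165, 619.8 ± 81.2 and 769 ± 86.2 after the high dose. At 3-d the middle and high dose groups held the next places in both members, above the low dose at 3-d.

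let-7f-5p followed another order. The highest group was the controls at 28-d, at 26304 ± 8353 normalized RPM, and the controls of the earlier days had, in order of time, 13844 ± 6502, 17892 ± 2897 and 21049.8 ± 4492. The low dose groups had 18896 ± 2007, 21917 ± 1509, 25512 ± 1573 and 20914 ± 3740.5. The middle dose groups had 16786 ± 1916, 17846 ± 2128, 17845 ± 2889.9 and 14713 ± 1560.4 and the high dose groups 20638 ± 977, 17747 ± 4094, 18999.9 ± 1482 and 17656 ± 478. The order overlapped in 14 of its 15 neighbouring pairs, and its highest mean was 1.90 times its lowest, a narrower span than in 6 of the other 7 members.

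let-7e-5p had the narrowest span, with the highest group mean 1.64 times the lowest. The controls had 254 ± 61.7, 267 ± 23.3, 370.3 ± 58.5 and 362 ± 68.3 normalized RPM and the low dose groups 308 ± 19.1, 361 ± 7.91, 382 ± 32.9 and 302 ± 37.7. The middle dose groups had 319 ± 57.6, 274 ± 40.1, 269 ± 42.2 and 233 ± 44.4 and the high dose groups 353 ± 51.4, 281 ± 23.8, 276 ± 27.4 and 325 ± 39.96. All neighbours in the order overlapped, and the controls at 14-d and 28-d came next after the low dose at 14-d.

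As a description, the 28 pairs of members were correlated over the 16 group means on the log2 scale, in points that share libraries and scaling. Pearson's r was highest for let-7i-5p with miR-98-5p (0.96) and for let-7a-5p with miR-98-5p (0.95), whose genes lie on different chromosomes. It was lowest for let-7b-5p with let-7f-5p (0.24) and was between 0.46 and 0.60 for let-7f-5p with the other members except let-7e-5p, with which it was 0.83. let-7a-5p and let-7f-5p, 341 bases apart on chromosome 17, had an r of 0.55, and let-7f-5p and miR-98-5p, 589 bases apart on chromosome X, one of 0.60.

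The share of the library taken by the 8 members together was between 1.91% and 4.48%, with a median of 3.23%. In the 6 libraries of the low dose at 7-d and 14-d it was between 3.86% and 4.48%. In the 6 controls of the same days it was between 2.78% and 3.66%, without overlap. Summed as normalized RPM, the same sets overlapped, at 40179 to 51589 and 26126 to 41094. Outside these sets, control 28-d replicate 18 (4.15%) and low dose 28-d replicate 29 (4.12%) lay in the low dose range of the share. So did high dose 7-d replicate 27 (4.02%) and high dose 3-d replicate 22 (3.90%). The Wilson 95% interval of this share was at most 0.0159 percentage points to either side in 47 libraries and ran from 1.86% to 1.96% in control 3-d replicate 1. Such intervals cover counting error only. No test was made of the sum.

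The make-up of the sum differed along with it. let-7f-5p held between 50.0% and 53.9% of the members' reads in the 6 low dose libraries of 7-d and 14-d and between 56.7% and 63.3% in the controls of those days. let-7a-5p held between 24.5% and 27.5% and between 17.6% and 22.1%. The extremes of all libraries were controls, with 40.7% let-7f-5p in control 3-d replicate 1 (Wilson 95% interval 39.4% to 42.01%) and 73.8% in control 28-d replicate 18 (73.7% to 74.0%).

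Ratios of reads within a library need no scaling between libraries. For every 100 reads of let-7f-5p there were between 45.4 and 55.0 reads of let-7a-5p in the 6 low dose libraries of 7-d and 14-d and between 27.8 and 38.1 in the controls of those days. For every 1000 reads of let-7f-5p there were between 14.2 and 17.01 reads of miR-98-5p in the first set and between 7.26 and 10.6 in the second. Conversely, reads of let-7e-5p for every 1000 reads of let-7a-5p were between 29.2 and 34.7 in the low dose libraries and between 40.2 and 67.1 in the controls. Reads of let-7d-5p for every 100 reads of let-7f-5p overlapped, between 5.77 and 6.98 in the low dose libraries and between 4.13 and 5.78 in the controls. The other 3 ratios separated the 6 libraries from the 6 controls. Outside them the ratio of let-7a-5p to let-7f-5p reached 54.6 in the low dose at 3-d and 66.8 in control 3-d replicate 1, and in the 24 libraries of the middle and high dose it was between 26.8 and 49.7.

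**Figure D3:**
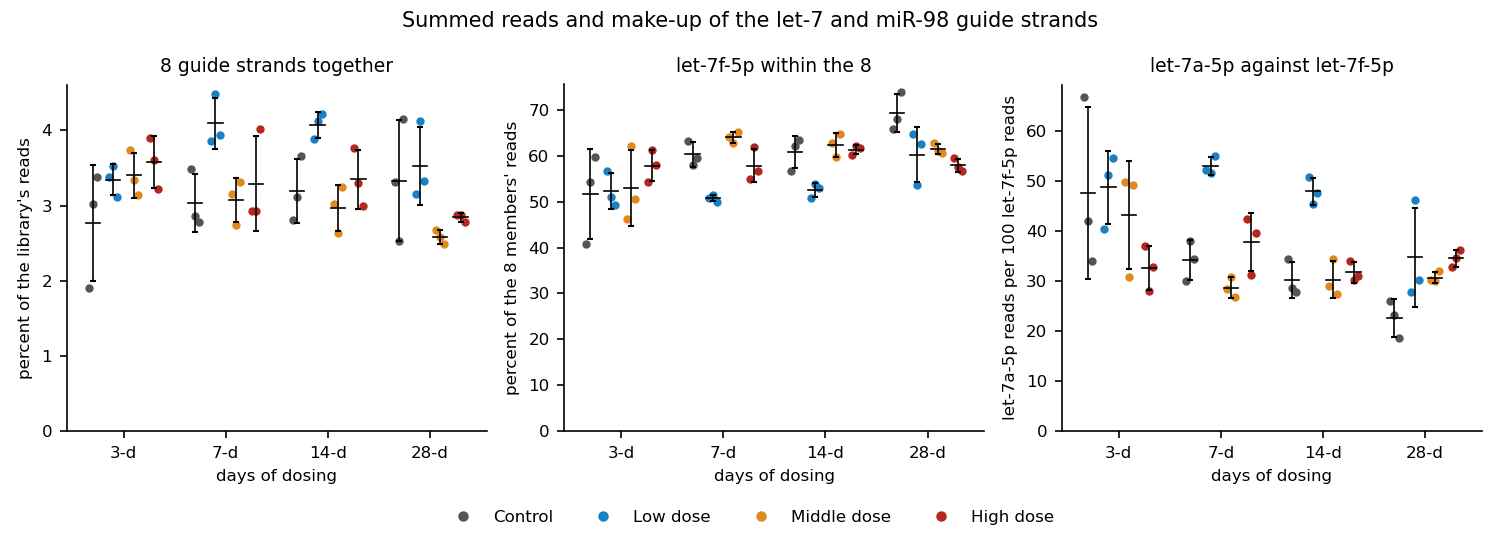
Percent of the library's reads in the 8 guide strands together (left), percent of their reads held by let-7f-5p (middle) and let-7a-5p reads for every 100 let-7f-5p reads (right), by days of dosing. Points are rats, black lines give the mean and SD of 3, and all axes start at 0. At 7-d and 14-d the low dose libraries lie above their controls on the left (3.86% to 4.48%) and on the right, and below them in the middle panel.

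The summed levels of some lists of cell type markers differed from the controls in the same libraries, and the other lists are not described here. The summed level of the 4 hepatocyte markers was between 296611 and 355006 normalized RPM after the low dose at 7-d and between 213537 and 242875 in its controls, and at 14-d between 348882 and 382506 against 239522 and 277207. Of these markers miR-122-5p, which makes up a large part of hepatocyte miRNA, was a DEM at both times. Unlike here, the study reported no differential expression of miR-122 by dose or by time point. The log2 fold change of miR-122-5p was 0.75 at 7-d and 0.67 at 14-d (edgeR adjusted p = 0.000233 and 0.00372). Its passenger strand miR-122-3p had −0.25 at 7-d and was a lower DEM at 14-d, at −0.73. miR-192-5p, the most abundant of the 4, had 0.49 and 0.48 at these times and was no DEM. miR-194-5p had −0.15 and 0.03 and was none either. The 4 leukocyte markers summed to between 1845 and 2829 at 7-d against 2970.1 to 3477 in the controls. Most of that sum was miR-142-5p, with a median of 2643 RPM over all libraries, against 438 RPM for the next, miR-150-5p. At 7-d the 5 bile duct or epithelial markers summed to between 395 and 492 against 1007 and 1086. The part of these shifts in the change of the let-7 members was not tested, nor was that of the running numbers 40 to 48.

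No member was a higher DEM after the middle dose. At 28-d, 20.9% of all tested miRNAs were DEMs above the controls and 12% below, and of the 8 members let-7f-5p and let-7e-5p were lower DEMs. let-7f-5p had 16122, 14979 and 13036 normalized RPM against 25704, 18266 and 34940.3 in the controls, and let-7e-5p had 256, 262 and 182 against 369.7, 289.7 and 426. The treated rats lay below the controls, which were themselves far apart. The log2 fold changes were −0.84 (SE 0.21, adjusted p = 0.0132) and −0.63 (SE 0.21, adjusted p = 0.0367). miR-122-5p was lower in the same libraries, at 23572, 25725 and 19333 against 40734, 29014 and 35124 (log2 fold change −0.61, adjusted p = 0.0164). Of the 4 hepatocyte markers 2 were lower DEMs, while their summed level, between 240639 and 277714 against 255142 to 285397, overlapped. At 7-d miR-122-5p was between 23821 and 29671 against 32766 to 34146. The part of this shift in the values of the let-7 members was not tested.

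Both of these calls rested on few libraries and on the scaling. Without control 28-d replicate 18, the library with the highest let-7f-5p, the log2 fold changes were −0.58 and −0.50 and neither member was a DEM. Library size alone gave −0.55 and −0.35 and all 12 controls pooled gave −0.43 and −0.43, again with 0 DEMs, and let-7e-5p was also lost without middle dose 28-d replicate 39 and with at least 5 RPM in every library, at −0.48 each time. The other 6 members had log2 fold changes between −0.46 for miR-98-5p (edgeR adjusted p = 0.0839) and 0.10 for let-7b-5p (edgeR adjusted p = 0.66).

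At 7-d and 14-d the middle dose gave no DEM of the family with the settings as reported. In both conditions 12% of all tested miRNAs were higher, and 3.99% and 5.32% were lower. The DESeq2 Wald test called let-7c-5p lower at 14-d, and DESeq2's size factors in edgeR called 1 member lower there. At 14-d all 8 log2 fold changes were below 0, from −0.55 for let-7c-5p (edgeR adjusted p = 0.0111) to −0.21 for let-7d-5p (adjusted p = 0.322). Of the members let-7c-5p alone had an adjusted p below 0.05, with a fold change under 1.5. In 6 of the members the treated rats lay wholly below the controls, which 17.6% of all tested miRNAs did. At 7-d, with edgeR adjusted p between 0.0441 and 0.984, the log2 fold changes were between −0.30 and 0.03. At 3-d, where 1.66% of all tested miRNAs were higher and 1.33% lower, they were between 0.25 and 0.44 with no unadjusted p below 0.05, and without control 3-d replicate 1 between −0.06 and 0.43.

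The high dose gave no DEM of the family at any time with the settings as reported. Over all tested miRNAs, the share of higher DEMs was 6.98% on day 3, 17.9% on day 7, 5.65% on day 14 and 13% on day 28. The share of lower DEMs was 4.32%, 3.32%, 3.65% and 2.33% in the same order. The nearest to a call were let-7b-5p and let-7f-5p at 28-d, in opposite directions. let-7b-5p had a log2 fold change of 0.58 (edgeR adjusted p = 0.0774), and let-7f-5p had 17449, 18202 and 17316 normalized RPM and a log2 fold change of −0.58 (edgeR adjusted p = 0.104), which was −0.32 without control 28-d replicate 18. At 14-d, let-7b-5p, let-7c-5p and let-7e-5p had log2 fold changes between −0.39 and −0.43, with edgeR adjusted p between 0.146 and 0.188. At 3-d the 8 log2 fold changes were between 0.17 and 0.71, and between 0.02 and 0.45 without control 3-d replicate 1. At 3-d and 7-d no member had an unadjusted p below 0.05, and 1 rat, high dose 7-d replicate 27, had 340.3 normalized RPM of miR-98-5p where the other two had 180.4 and 153. Under other settings the high dose gave single calls. At 28-d, DESeq2's size factors, no filter, 5 RPM in every library and the DESeq2 Wald test each called 1 member lower. Library size alone called 1 member higher there. At 3-d, a single fit of all 48 libraries and all 12 controls pooled each called 1 member higher.

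The doses were then compared with each other in a fit of all 48 libraries, in which a difference was called at an adjusted p below 0.05. The 11 contrasts gave 88 tests for the members, of which 22 were called, all of them lower at the higher dose. Middle minus low dose at 7-d was called in 6 members (background 28.9%), from −0.88 for let-7d-5p to −1.31 for miR-98-5p on the log2 scale, with edgeR adjusted p between 0.000279 and 0.00365. The exceptions were let-7e-5p and let-7f-5p. At 14-d the same contrast was called in 7 members (background 23.3%), all but let-7f-5p, with miR-98-5p at −1.37 (SE 0.27, adjusted p = 0.000491) and let-7a-5p at −1.20 (SE 0.22, adjusted p = 0.000491). The call of let-7e-5p at −0.51 was lost without middle dose replicate 31 or 32 or low dose replicate 40 or 42, at −0.39 to −0.54. At 28-d it was called in let-7a-5p alone (background 4.32%) at −0.74 (edgeR adjusted p = 0.0419), and that call was lost without low dose 28-d replicate 29, where the difference was −0.28. It was also lost without any of the middle dose 28-d replicates 37, 38 and 39, at −0.68 to −0.80.

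High minus low dose was called in 2 members at 7-d (background 8.64%), let-7a-5p at −0.79 (SE 0.22, adjusted p = 0.0225) and let-7c-5p at −0.75 (SE 0.24, adjusted p = 0.0366). Each of these calls was lost when high dose 7-d replicate 25 or 26 or any of the low dose 7-d replicates 46, 47 and 48 was left out, with differences between −0.60 and −0.85. The count at 7-d was 4 under TMM, DESeq2's size factors, the DESeq2 Wald test and no filter. At 14-d high minus low dose was called in 6 members (background 19.3%), all but let-7e-5p and let-7f-5p, between −0.63 for let-7i-5p and −1.05 for miR-98-5p. The call of let-7i-5p was lost when any library of either group was left out, the high dose replicates 7 to 9 and the low dose replicates 40 to 42, with differences between −0.58 and −0.66. The count of 6 depended on the setting, with 5 under TMM, DESeq2's size factors and the DESeq2 Wald test, 4 with 5 RPM in every library, 3 with library size alone and 2 with no filter. At 28-d no member was called (background 2.66%), with differences between −0.30 and 0.11.

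No member was called between doses at 3-d, where the background was 13.6% for high minus low and 11.6% for middle minus low dose. Unadjusted p-values below 0.05 were found in 0 members for the first and in 1 for the second, and DESeq2 called 0 in both. The change of the effect from 7-d to 28-d was called in no member for any dose with the settings as reported or with DESeq2, with 0% of all tested miRNAs called for the low and the middle dose and 0.332% for the high dose. The unadjusted p was below 0.05 in 2 members for the low dose, in 2 for the middle dose and in 0 for the high dose.

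**Figure D4:**
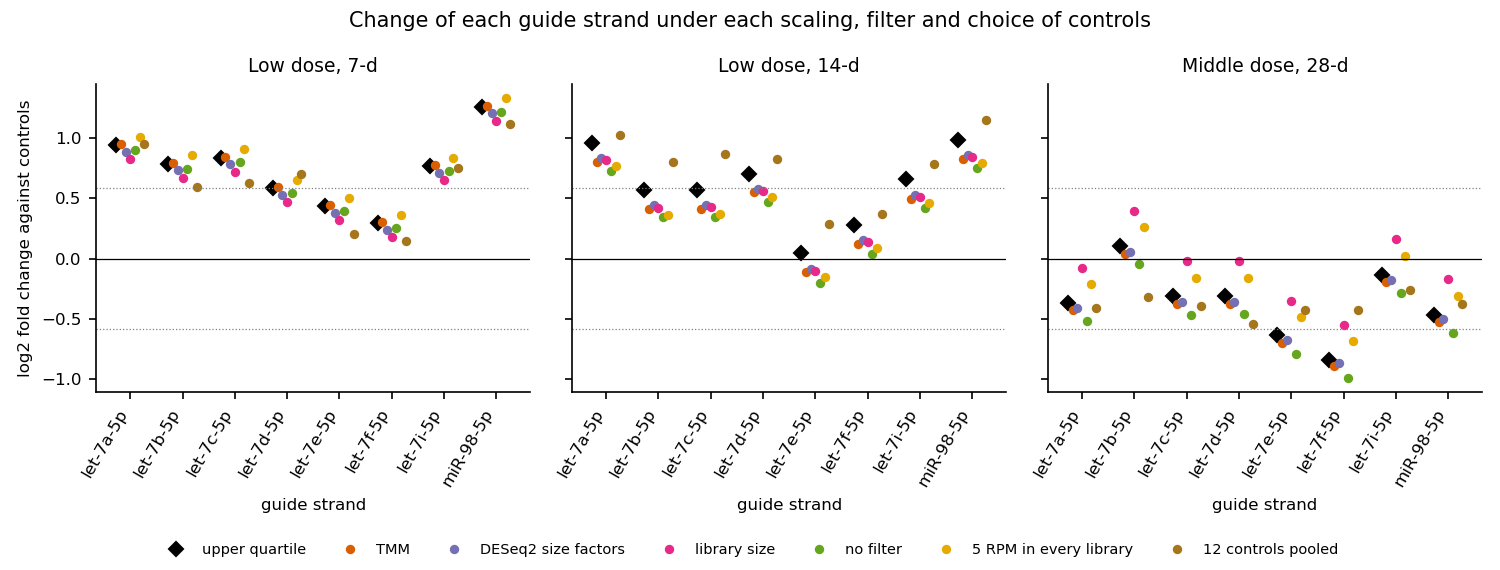
Log2 fold change of each guide strand against controls (vertical axis, log2 scale) under 7 settings, upper quartile scaling as reported (black diamonds), 3 other scalings, 2 other filters and all 12 controls pooled, for the low dose at 7-d and 14-d and the middle dose at 28-d. Dotted lines mark a fold change of 1.5. At 7-d let-7a-5p, let-7b-5p, let-7c-5p, let-7i-5p and miR-98-5p lie above the upper line in every setting shown, at 14-d let-7e-5p changes sign, and at 28-d the points of let-7f-5p spread from −0.99 to −0.43.

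No passenger strand was a higher DEM. Of 12 listed, 11 had reads and 9 were tested, which gave 0 higher and 11 lower DEMs in 108 comparisons over the 12 conditions, beside the shares of 12.1% and 5.98% over all tested miRNAs. Of the 11, 5 fell to 3-d, where let-7d-3p had 10971 normalized RPM in control 3-d replicate 1 and 542 and 536 in the other controls. Without that library 8 lower DEMs were left, 2 of them at 3-d, let-7d-3p at −0.63 (adjusted p = 0.0483) and let-7e-3p at −0.82 (adjusted p = 0.0959) after the low dose. At the low dose and 7-d, where let-7a-5p and miR-98-5p rose, the passenger strand let-7a-1-3p had a log2 fold change of −0.12 (edgeR adjusted p = 0.414) and miR-98-3p one of −0.28 (edgeR adjusted p = 0.199). Lower DEMs there were let-7e-3p at −0.90 (adjusted p = 0.0129) and let-7d-3p. let-7d-3p had 364, 361 and 312 normalized RPM against 661, 561 and 433, all below the controls, a log2 fold change of −0.67 (edgeR adjusted p = 0.00907). At 14-d none of the 9 was a DEM, and their median log2 fold change was −0.06. The passenger strand with the most calls, let-7b-3p, was lower in 5 conditions, among them the middle dose at 28-d at −0.71 (SE 0.20, adjusted p = 0.0205). Its 2 calls at 3-d, at −3.04 after the middle and −3.13 after the high dose, became 0.15 and 0.06 without control 3-d replicate 1. Both let-7a-1-3p and let-7c-2-3p ranged from 39.5 to 149 normalized RPM, with −0.12 each after the low dose at 7-d. The 108 comparisons may thus hold the same reads under 2 names, and let-7a-1-3p may not stand for let-7a alone.

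Neighbours on the same stretch of chromosome were read as a further description. They are shown because they share genomic surroundings, but not the seed, with let-7 members.
miR-99b-5p: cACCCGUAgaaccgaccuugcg
miR-100-5p: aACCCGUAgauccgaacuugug
miR-125a-5p: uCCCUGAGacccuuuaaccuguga
miR-125b-5p: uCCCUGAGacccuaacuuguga
In GRCr8, miR-99b-5p lies 151 bases before let-7e-5p and miR-125a-5p 424 bases after it on the same strand, miR-100-5p lies 6890 bases from the second copy of let-7a-5p, and miR-125b-5p lies 44439 bases from the second copy of let-7c-5p.

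The 5 listed neighbours, these 4 and miR-99a-5p, gave 12 higher and 4 lower DEMs in 60 comparisons. Over all tested miRNAs in the same conditions the shares were 12.1% and 5.98%. The 12 higher ones were the same 4 miRNAs after the middle dose at each day from 7-d to 28-d, where 12%, 12% and 20.9% of all tested miRNAs were higher. Raised levels were not confined to that dose. miR-100-5p was between 926 and 1441 normalized RPM in those 9 libraries and between 118 and 277 in the 12 controls, but it was also at 928 and 880.3 in low dose 28-d replicates 28 and 30, with 114 in replicate 29, and at 1539 in high dose 7-d replicate 26, with 198 and 125 in the other rats of that group. miR-99b-5p stood at 3836, 3555 and 5110 in the same 3 libraries. Without low dose 28-d replicate 29, a setting chosen after the data were seen, the higher DEMs numbered 16, the 4 added ones at the low dose at 28-d. miR-125b-5p, the neighbour with the most calls, rose by 0.93, 1.06 and 0.70 on the log2 scale at these times (edgeR adjusted p = 0.000217, 0.000228 and 0.0175) and fell by 0.76 after the high dose at 28-d (adjusted p = 0.0179). miR-99b-5p, singled out here for its place beside let-7e-5p, had 6275, 5507 and 5192 normalized RPM after the middle dose at 28-d and 1552, 1837 and 1429.5 in the controls. In the same rats let-7e-5p was lower. miR-125a-5p, on the other side of let-7e-5p, fell after the low dose, by 0.86 on the log2 scale at 7-d (adjusted p = 0.000384), where let-7e-5p had 0.43, and by 0.83 at 14-d (adjusted p = 0.00134).

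The reads of let-7e-5p for every 100 reads of miR-99b-5p were between 3.51 and 7.14 in the 9 middle dose libraries of 7-d to 28-d and between 14.0 and 29.8 in the 9 controls of those days. The sets did not overlap. Values of 7.15 and 8.05 in low dose 28-d replicates 28 and 30 and of 5.08 in high dose 7-d replicate 26 lay near the middle dose, while the other rats of these groups had 34.5 and 20.1 and 25.8, and control 3-d replicate 1 had the lowest value of all, 2.15. For every 100 reads of miR-125a-5p there were between 20.8 and 27.5 reads of let-7e-5p in the 6 low dose libraries of 7-d and 14-d and between 8.33 and 16.4 in those 9 controls. The middle dose libraries of 7-d to 28-d carry the running numbers 31 to 39, and those of 3-d, with 0 neighbours called, the numbers 10 to 12, so dose, time and position in that order cannot be told apart here either.

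**Figure D5:**
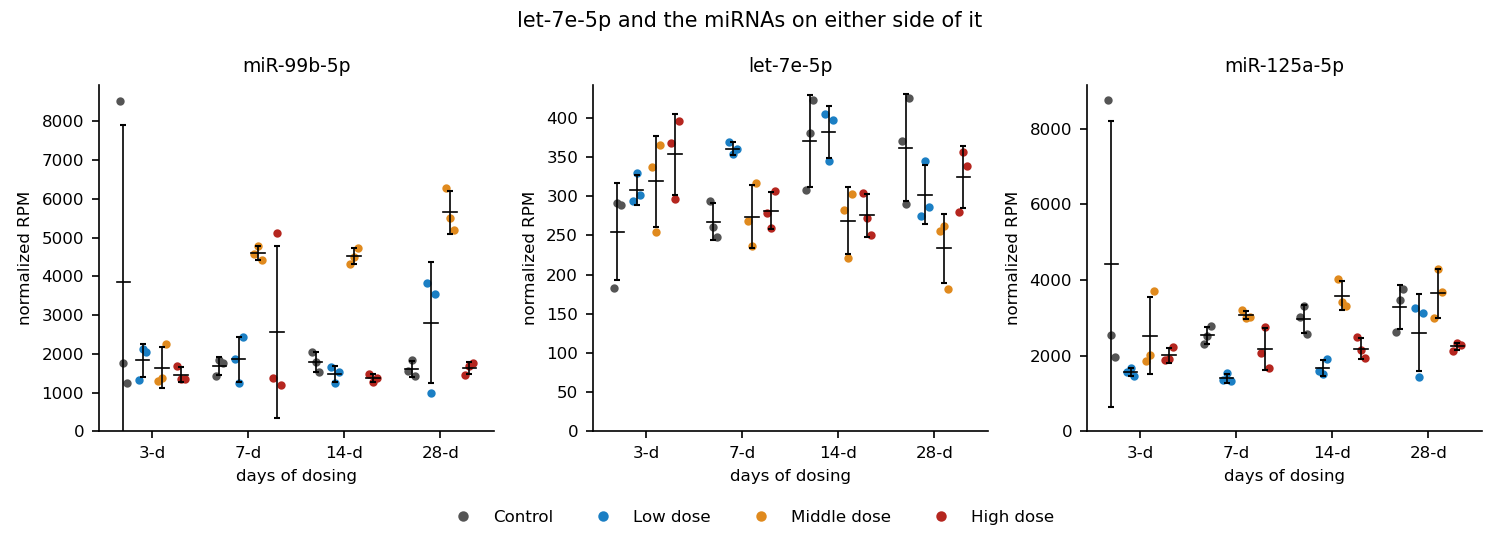
Normalized RPM (vertical axes, linear from 0) of miR-99b-5p, let-7e-5p and miR-125a-5p, which lie in this order on chromosome 1, in every rat by days of dosing. Points are rats and black lines give the mean and SD of 3. After the middle dose at 28-d, miR-99b-5p was between 5192 and 6275 and let-7e-5p between 182 and 262, the highest point of miR-99b-5p at 3-d is control 3-d replicate 1, and 2 low dose rats at 28-d and 1 high dose rat at 7-d stand above the rest of their groups in miR-99b-5p.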

How the data were processed

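Liver small RNA of 48 rats was analysed, 3 in each of 16 groups taken from the sample titles. After adaptor trimming by the authors, reads 18 to 25 bases long were kept and counted on miRBase release 21. Their processing notes name FastQC, miRDeep2 and the genome rn5. The deposited values are raw counts, without normalization or pooling. The members and all lists were chosen with earlier results of these data known. A mature miRNA listed for several precursors kept the row with the most reads. The second row held 99.8% of the reads of the kept row for let-7a-5p, 96.0% for let-7c-5p and 88.2% for let-7f-5p.

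The 301 miRNAs with at least 5 RPM in at least 3 libraries were tested by the quasi-likelihood F-test after upper quartile normalization (edgeR 4.0.16, R 4.3.3), as the study's methods name edgeR, this normalization and the thresholds. Each of 12 conditions was fitted with its 3 controls. Differences between doses and time points were contrasts of a single fit of 48 libraries. P-values were adjusted after Benjamini and Hochberg over all tested miRNAs. Standard errors are the log2 fold change divided by the root of F. A count of 3 in the smallest library is 10.2 RPM, below every member's level. DESeq2 1.42.0 and other scalings, filters and controls were alternatives, and each library was left out in turn, with no block because the groups share no replicate number. The fits were tested on simulated data.

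Named were all members, all called members, of each list the miRNA with the most calls, and the 3 other miRNAs with the most similar profile. Sequences and positions are from RefSeq (GRCr8), in which 270 of the 301 names were found. Tables were made with Python 3.11.15 and pandas 2.3.3. The study's qPCR and pathology were not analysed here.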

Additional observations from a re-analysis of the deposited data

How the results depend on the processing

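The count of members above the controls, 10, was between 8 and 13 under the other settings except with all 12 controls pooled, which gave 16. The count below the controls, 2, was 4 with DESeq2's size factors in edgeR, with no filter and with the DESeq2 Wald test, and 0 with library size alone and with all 12 controls pooled. Leaving out single libraries gave between 9 and 12 higher calls and between 0 and 4 lower calls, with 0 without control 28-d replicate 18, 1 without middle dose 28-d replicate 39 and 4 without control 28-d replicate 17. The 22 called differences were between 18 and 30 under other settings and between 20 and 28 with a library left out. At the low dose and 7-d, 5 or 6 members were called in every alternative. High minus low was called in 2 to 4 members at 7-d and in 2 to 6 at 14-d, and the low dose effect, 28-d minus 7-d, in 0 or 1. The middle minus low difference at 28-d was called in 0 to 7 members, with 0 at a filter of 5 RPM in every library and 7 under TMM. No called value changed its direction. Relative to upper quartile scaling, library size alone moved the median log2 fold change of all tested miRNAs by −0.21 to 0.28, TMM by −0.23 to 0.11 and DESeq2's size factors by −0.22 to 0.12. No paired analysis was possible because the groups compared share no replicate numbers. The cause of these shifts was not tested. With 3 rats in a group, a member near a fold of 1.5 can cross the threshold with a small change of scale. Chosen after the data were seen, leaving out control 3-d replicate 1 gave 8 in place of 11 lower passenger strand calls.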

Other observations

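let-7g-5p, the other mature miRNA with the let-7 seed in the RefSeq table, is no member of the list. It had 6551, 8061 and 7656 normalized RPM after the low dose at 7-d against 5076, 4986 and 4870.0 in the controls, and 8037, 7531 and 8579 at 14-d against 4548, 4642 and 5303. Treated rats were above the controls at both times. The log2 fold change was 0.58 at 7-d (edgeR adjusted p = 0.0021), just under the fold threshold, and 0.74 at 14-d (edgeR adjusted p = 0.000843), where let-7g-5p was a DEM. In the other 11 conditions it was none.

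Of the other tested miRNAs, those with the group profile most like the mean of the 8 members, by Pearson's r over 16 group means that share libraries and scaling, were the hepatocyte miRNA miR-122-5p (0.95), miR-181b-5p (0.88) and miR-181d-5p (0.86). miR-122-5p had 54276, 53685 and 60469 normalized RPM after the low dose at 7-d against 33564, 34146 and 32766 in the controls. miR-181b-5p had a log2 fold change of 0.53 in that condition (edgeR adjusted p = 0.00338) and miR-181d-5p one of 0.62 (edgeR adjusted p = 0.00694).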
